A study of Mus musculus with 26 samples.

Results

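The 8 genes described here encode ion channels and ion exchangers of endosomes and lysosomes: the mucolipins Mcoln1, Mcoln2 and Mcoln3, the chloride/proton exchangers Clcn3, Clcn5, Clcn6 and Clcn7, and the two-pore channel gene Tpcn1. They were chosen by symbol as 8 of the 46517 genes in the table, and all 8 passed the filter on low values that left 16372 genes for testing. RNA was sequenced from thymocytes sorted from the thymus of mice of 3 T cell receptor transgenic lines, which the study used as models of low (TG6), intermediate (F5) and high (OT-1) self-reactivity. Thymocytes at early positive selection were sorted as CD4+CD8+CXCR4+CCR7-, those at late positive selection as CD4+CD8+CXCR4-CCR7+, and mature CD8 single positive (CD8SP) thymocytes as CD4-CD8+CXCR4-CCR7+. F5 mice were F5tg Rag1KO and OT-1 mice were OT-1tg Rag2KO, both on the strain C57/BL6. TG6 mice were TG6tg H2b/d on C57/BL6 x B6.C-H2d/bByJ, with no Rag deletion named in their genotype, so line, Rag genotype and H2 haplotype cannot be told apart. There were 3 libraries per group but 2 for late TG6, and no age was given for the animals in the labels. All values are normalized counts, as deposited, and the 26 libraries summed to between 16134786 and 18944173 normalized counts. Thymocyte marker genes summed to 57251 to 102594 normalized counts in every library, and the thymic epithelial genes Foxn1, Krt5 and Krt8 were at 3 or fewer throughout. Of the genes behind the sort, Cd4 fell from group means of 8026 to 22113 at the early stage to 153 to 259 at the mature stage, and Ccr7 went from 147 to 779 up to 6865 to 12058.

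Mucolipins are cation channels of the endolysosomal membrane that let calcium out of the organelle and open in response to the lipid PI(3,5)P2. Mcoln1 is expressed in most cell types, whereas Mcoln2 is best known from lymphoid and other immune cells. The proteins encoded by Clcn3, Clcn5, Clcn6 and Clcn7 exchange chloride for protons and serve the acidification and ion balance of endosomes and lysosomes, and the Clcn7 protein needs the beta subunit encoded by Ostm1. Two-pore channels release sodium and calcium from the same organelles. Many lysosomal genes are controlled by the transcription factor TFEB and its relatives, which bind motifs built around the hexamer CACGTG.

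Of the 8 genes, 7 had at least 1 RefSeq promoter window (250 bases before to 50 after a transcription start, build GRCm38.p6), 10 windows in all, and Tpcn1 had none. The hexamer CACGTG, a palindrome that reads the same on both strands, was searched in these windows. Of all 32851 windows, 7.15% held at least 1 copy and 0.594% held at least 2. Mcoln1, Clcn6 and Clcn7 each had a window with 2 copies and Mcoln2 had a window with 1, at 72 bases before the start. No copy was found in the windows of Mcoln3, Clcn3 and Clcn5 or in a second window of Clcn7. The stretches before the start of the 3 genes with 2 copies are shown 5′ to 3′, with the hexamer in capitals, because they are the members whose windows hold more than 1 copy. A match of these letters is a description of the window and not a binding site.
Mcoln1 (chr8:3500419-3500486, + strand): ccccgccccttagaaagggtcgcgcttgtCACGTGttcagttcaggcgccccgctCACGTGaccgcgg
Clcn6 (chr4:148038814-148038913, - strand): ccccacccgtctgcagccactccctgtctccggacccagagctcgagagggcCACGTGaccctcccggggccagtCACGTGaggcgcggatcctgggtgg
Clcn7 (chr17:25133291-25133390, + strand): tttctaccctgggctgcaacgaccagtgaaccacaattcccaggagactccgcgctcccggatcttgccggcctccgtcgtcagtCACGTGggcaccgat
The copies lay 71 and 45 bases before the start in Mcoln1 and 48 and 25 bases before it in Clcn6. The Mcoln1 stretch shown is 68 bases long and stops short of the RefSeq start. Those of Clcn6 and Clcn7 are 100 bases long and run up to it. In Clcn7 the copy shown lay 15 bases before the start, and the second began at base 8 after it. The RefSeq start lay 62 bases inside the GENCODE gene of Mcoln1, 8 bases inside that of Clcn6 and 0 bases from that of Clcn7. In Mcoln2 the whole window (chr3:146149924-146150223) lay inside the GENCODE gene, which starts at 146149833. The copy of Mcoln2 is therefore before the RefSeq start but after the GENCODE start.

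In the GENCODE vM21 annotation (GRCm38), Mcoln3 (chr3:146117450-146141806) and Mcoln2 (chr3:146149833-146195513) are neighbours on the + strand of chromosome 3, with 8026 bases between them. Mcoln1 spans chr8:3500457-3515232 (+ strand), Clcn3 chr8:60910389-60983300 (- strand), Clcn5 chrX:7153810-7319358 (- strand) and Clcn6 chr4:148004259-148038821 (- strand). Clcn7 spans chr17:25133391-25162104 (+ strand) and Tpcn1 chr5:120534153-120588673 (- strand). No exon of another annotated gene overlapped an exon of these 8 genes.

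The levels of the genes differed widely. Per kb of merged exons and averaged over the 26 libraries, Tpcn1 had the highest level, with 325 normalized counts per kb. Clcn7 (166), Clcn6 (142) and Mcoln1 (117) followed, then Clcn3 (92.7) and Mcoln3 (90.7) on the same scale. Mcoln2 (22.3) and Clcn5 (18.6) had the lowest levels per kb. Between the group with the highest mean and the group with the lowest, Mcoln2 differed by 18.0-fold, whereas the other 7 genes differed by 1.34-fold (Clcn3) to 2.22-fold (Clcn6).

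Mcoln2 was the gene with the largest change between stages. It was low at late positive selection in every line and high at the stages before and after it. In F5 the early libraries held 132, 133 and 95.6 normalized counts, the late libraries 3.05, 15.7 and 6.12, and the mature libraries 122, 160 and 93.2. In TG6 the counts were 84.4, 81.5 and 90.6 early, 17.3 and 4.91 late, and 168, 116 and 164 in mature thymocytes. In OT-1 they were 61.7, 56.1 and 74.3, then 18.8, 11.6 and 23.2, then 66.4, 50.6 and 53.8. In each line the late libraries lay below all early and all mature libraries of that line.

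The changes of Mcoln2 were tested with limma on log2(normalized count + 1), with p-values adjusted over all genes tested and a gene called at an adjusted p under 0.05. From early to late positive selection Mcoln2 fell 15.3-fold in F5 (log2 fold change −3.93 ± 0.41 SE, adjusted p = 5.5e-07), 8.31-fold in TG6 (−3.06 ± 0.46, adjusted p = 2.8e-05) and 3.55-fold in OT-1 (−1.83 ± 0.41, adjusted p = 0.0021). From late positive selection to the mature stage it rose 15.7-fold in F5 (3.98 ± 0.41, adjusted p = 8.7e-07), 14.3-fold in TG6 (3.83 ± 0.46, adjusted p = 4.5e-06) and 3.17-fold in OT-1 (1.66 ± 0.41, adjusted p = 0.0055). Between the early and the mature stage no change was called, with log2 fold changes of 0.78 ± 0.41 in TG6 (adjusted p = 0.16), 0.04 ± 0.41 in F5 (adjusted p = 0.97) and −0.17 ± 0.41 in OT-1 (adjusted p = 0.83). All 6 called changes of Mcoln2 were also called in each of the 9 alternatives to the fit and with any 1 library of the compared groups left out. In TG6, with 2 late libraries, leaving out 1 library moved the fall to between −3.87 and −2.24 and the rise to between 3.02 and 4.65 on the log2 scale. Over the 9 alternatives, which include other pseudocounts, the fall lay between −4.14 and −3.33 in F5, −3.20 and −2.61 in TG6, and −1.89 and −1.62 in OT-1.

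Between stages, genes of cell division moved with Mcoln2. All 8 cell division genes followed here, among them Mki67 and Top2a, fell from early to late positive selection and rose again at the mature stage in all 3 lines. Their summed normalized counts were 36402 to 39381 in early TG6, 54707 to 70418 in early F5 and 52187 to 75872 in early OT-1. At late positive selection the sums were 529 and 617 in TG6, 406, 414 and 6640 in F5, and 2600 to 4661 in OT-1. In mature CD8SP thymocytes they were 14067, 15423 and 54965 in TG6, 15304 to 43585 in F5, and 59885 to 68545 in OT-1. At this stage OT-1 had the highest sums but the lowest Mcoln2 counts, 50.6 to 66.4. Mature TG6 replicate 3, with the sum of 54965, held 164 counts of Mcoln2, between replicate 1 (168) and replicate 2 (116). The late F5 library with the high sum, replicate 2, also had the highest Mcoln2 count of its group. Without it the fall of Mcoln2 in F5 was −4.48 (adjusted p = 2.9e-08) and the rise 4.52 (adjusted p = 4.8e-08) on the log2 scale. Whether cell division has a part in the level of Mcoln2 was not tested, and in sorted bulk samples fewer cells that express a gene and less RNA per cell cannot be told apart.

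**Figure D1:**
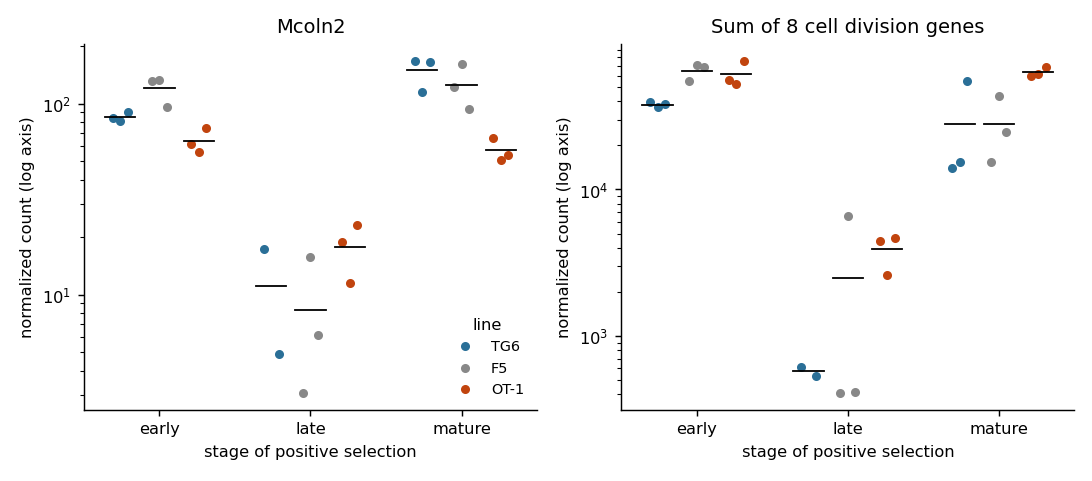
Normalized counts on log axes by stage for Mcoln2 (left) and for the sum of 8 cell division genes (right), with 1 point per library coloured by line and a black bar at the group mean. The late libraries hold 3.05 to 23.2 counts of Mcoln2 against 50.6 to 168 at the other stages, and the sum is also lowest at the late stage.

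Genes that mark other immune cells, in which Mcoln2 is also known, were followed beside it. Of the 5 B cell markers 4 could be tested, and of these only Cd79b was called between stages. Cd79b fell and rose again in TG6 and F5, with means of 208 in early, 133 in late and 221 in mature F5, and in OT-1 its rise from late to mature was called. The B cell sums lay between 121 and 336 normalized counts in all libraries. The 11 macrophage and dendritic cell markers summed to 285 to 391 in early, 144 to 183 in late and 173 to 391 in mature F5, and to 327 to 604, 269 to 297 and 349 to 454 in OT-1. In TG6 the same sums were 306 to 386, at most 297, and 367 to 716. From early to late positive selection 1 of these 11 markers fell and 1 rose in TG6, 1 fell in F5 and 2 fell in OT-1, where the dendritic cell integrin gene Itgax fell and then rose again. From late to mature 2 rose in TG6, 3 rose in F5, and 1 rose and 1 fell in OT-1. The mean sum of these markers was thus lowest at the late stage in each line, as was Mcoln2, with 343, 273 and 495 in TG6, 322, 159 and 262 in F5, and 504, 287 and 409 in OT-1. Csf1r, a defining macrophage receptor, had a mean of 0 in late F5 and of 27.0 in early OT-1, its highest group. The part of these cells in the Mcoln2 values was not tested.

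Across lines the order of Mcoln2 levels changed with the stage. In early and mature thymocytes OT-1 had the lowest mean (64.0 ± 9.3 and 56.9 ± 8.3, SD, n = 3), and at late positive selection it had the highest (17.8 ± 5.9), above TG6 (11.1 ± 8.8, n = 2) and F5 (8.28 ± 6.6). Of the 8 pairs of groups next to each other in the order of the 9 means, 5 overlapped in their ranges, and the late groups of the 3 lines could not be separated in that way. OT-1 was lower than TG6 at the mature stage, by 2.58-fold (−1.37 ± 0.41, adjusted p = 0.040), and no library of one line overlapped the other. That call was lost in 4 of 9 alternatives (adjusted p = 0.055 to 0.064) and on leaving out any of 5 of the 6 libraries, the value then lying between −1.54 and −1.27. OT-1 was higher than F5 at late positive selection (1.21 ± 0.41, adjusted p = 0.036). The counts of those groups overlapped, and the call was lost in 4 of 9 alternatives, with adjusted p up to 0.21. Without F5 late replicate 1 the difference was 0.74 (adjusted p = 0.20). The call was also lost without F5 late replicate 3 (1.15, adjusted p = 0.10), OT-1 late replicate 1 (1.15, adjusted p = 0.10) or OT-1 late replicate 3 (1.01, adjusted p = 0.13). Without F5 late replicate 2 the difference was 1.76 (adjusted p = 0.0025).

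The difference between lines in the size of the Mcoln2 changes was tested directly. The fall from early to late was smaller in OT-1 than in F5 by 2.11 ± 0.58 on the log2 scale (adjusted p = 0.071), and the rise to the mature stage differed by −2.31 ± 0.58 (adjusted p = 0.060). Against TG6 the fall in OT-1 differed by 1.23 (adjusted p = 0.46), where the fall of TG6 itself moved to between −3.87 and −2.24 with 1 library left out. The rise in OT-1 differed from that in TG6 by −2.17 ± 0.62 (adjusted p = 0.10). None of these passed the test described above. With the replicate number as a block both differences from F5 and that of the rise from TG6 were called (adjusted p = 0.019, 0.015 and 0.036), and a pseudocount of 5 also gave a call for the rise against F5 (adjusted p = 0.041). Without F5 late replicate 2 the differences from F5 were 2.65 (adjusted p = 0.0069) and −2.86 (adjusted p = 0.0078), and without others they went down to 1.63 (adjusted p up to 0.17) and −1.84 (adjusted p up to 0.14). Leaving out 1 library moved the difference from TG6 to between −2.99 and −1.36, and it was called without TG6 late replicate 1 (adjusted p = 0.025). These tests of the steps were chosen after the values of Mcoln2 had been seen.

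In the same way all 8 genes were tested for a difference between lines in their changes, in 9 contrasts and 72 tests. With all libraries and the test described above none was called, and 11 had an unadjusted p under 0.05. Of all genes tested, 2.04% (OT-1 minus TG6), 1.68% (OT-1 minus F5) and 2.08% (F5 minus TG6) were called for the early to late change. For the late to mature change these shares were 1.17%, 0.843% and 0.116%, and for the early to mature change 4.2%, 1.64% and 4.4%, in the same order. A larger change in one line than in another is therefore given below only as values.

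The other genes changed less between stages. From early to late positive selection 2 of 8 genes were called in TG6, where 25.4% of all genes tested were called. In F5 3 of 8 were called, where 26.7% of all genes were, and in OT-1 also 3 of 8, where 26.7% were. From late positive selection to the mature stage 2 of 8 were called in TG6 (22.3% of all genes), 2 in F5 (20.5%) and 3 in OT-1 (24.4%). From early to mature 2 of 8 were called in TG6 (34.6%), 1 in F5 (19.6%) and 1 in OT-1 (23.2%). With 8 genes these counts lie close to the shares of all genes, so the description rests on the single genes.

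**Figure D2:**
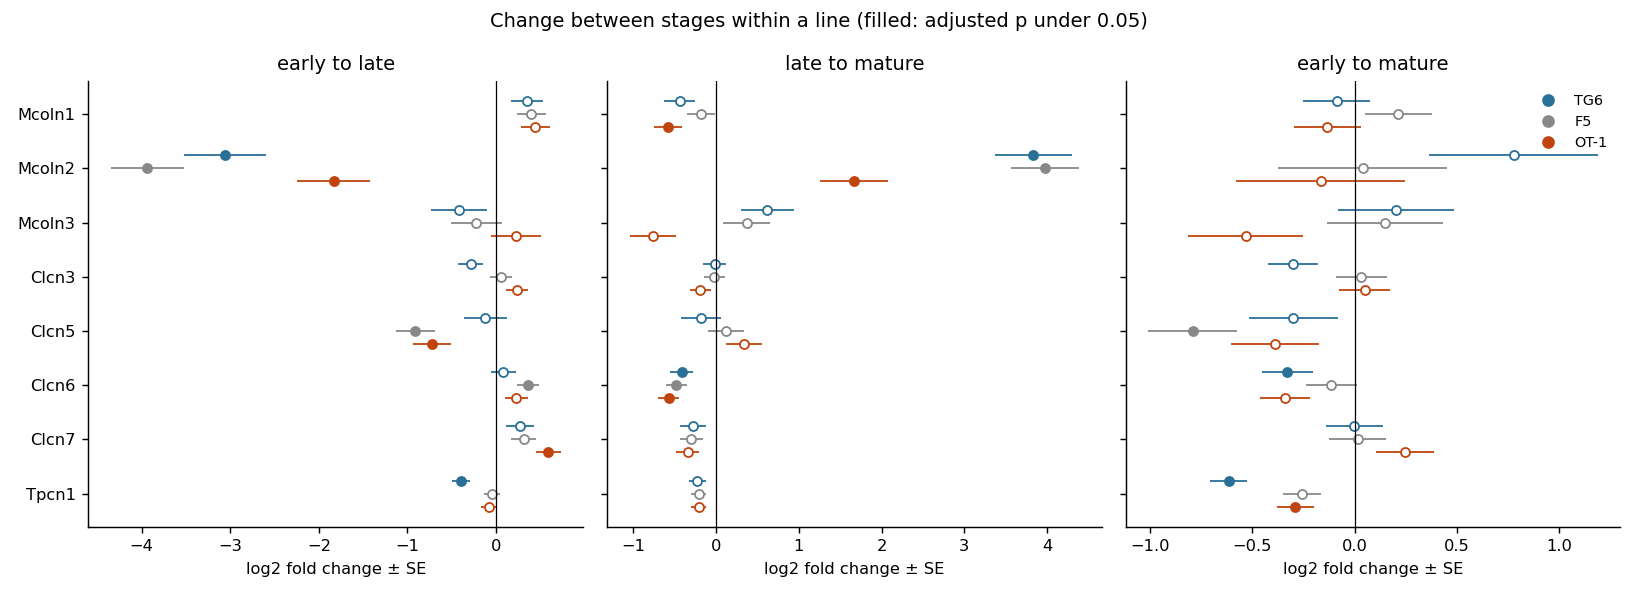
Log2 fold changes ± SE of the 8 genes from early to late (left), late to mature (middle) and early to mature (right) within TG6, F5 and OT-1, with filled points for an adjusted p under 0.05. Mcoln2 falls and then rises in all 3 lines, and Clcn6 is the only other gene called in all 3 lines for 1 step, lower from late to mature.

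Mcoln1, the broadly expressed mucolipin, had its highest mean at late positive selection in every line. In OT-1 the libraries held 647, 626 and 630 normalized counts early, 945, 878 and 777 late, and 646, 614 and 488 in mature thymocytes. The late OT-1 libraries lay above all other OT-1 libraries. The fall from late to mature in OT-1 was called (−0.58 ± 0.17, adjusted p = 0.014), and the call was lost without mature replicate 3 (−0.46, adjusted p = 0.083) or late replicate 1 (−0.51, adjusted p = 0.062). The values from early to late were 0.45 ± 0.17 in OT-1 (adjusted p = 0.051), 0.40 ± 0.17 in F5 (adjusted p = 0.081) and 0.35 ± 0.18 in TG6 (adjusted p = 0.19), none of which was called, although early and late libraries did not overlap in any line. With only the compared groups fitted they were called in OT-1 (adjusted p = 0.013), F5 (adjusted p = 0.022) and TG6 (adjusted p = 0.027). The OT-1 value was called in 4 of the 9 alternatives and without late replicate 3 (adjusted p = 0.047). In F5, whose replicate numbers pair the samples, the value was called in the fit with the replicate number as a block (adjusted p = 0.033), which made 4 genes called from early to late in F5. In F5 the counts were 858, 828 and 895, then 1051, 1238 and 1117, then 1047, 909 and 1044. In TG6 they were 918, 898 and 888, then 1074 and 1227, then 908, 1168 and 574.

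The lowest of these values belongs to TG6 mature replicate 3, a library that stood apart in several genes. It had the lowest count of its group for Mcoln1, Mcoln3 (167 against 439 and 397), Clcn6 (652 against 891 and 798), Clcn7 (722 against 1193 and 1058) and Tpcn1 (2100 against 2772 and 2580). It had the highest count for Clcn5 (238 against 161 and 150), and its cell division sum of 54965 was over that of the other 2 libraries, 14067 and 15423.

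Mcoln3, the neighbour of Mcoln2 on chromosome 3, had no called change between stages. The OT-1 libraries held 454, 266 and 428 normalized counts early, 434, 368 and 520 late, and 230, 240 and 307 in mature thymocytes. In F5 they held 275, 318 and 314, then 217, 358 and 223, then 301, 409 and 304, and in TG6 305, 266 and 235, then 226 and 176, then 439, 397 and 167. In OT-1 the mature libraries lay below all late libraries, and in TG6 both late libraries lay below all early ones. The nearest to a call was the late to mature difference in OT-1 (−0.76 ± 0.28, adjusted p = 0.055), and 5 of the 9 alternatives called it (adjusted p = 0.0052 to 0.050). In TG6 the late to mature value was 0.62 (adjusted p = 0.17) with all libraries and 1.06 (adjusted p = 0.0066) without mature replicate 3, and leaving out other libraries brought it down to 0.37 (adjusted p up to 0.55). The difference of OT-1 minus TG6 in this change was −1.38 (adjusted p = 0.14) with all libraries, −1.82 (adjusted p = 0.0037) without that library and −1.65 (adjusted p = 0.0050) with the replicate block, and that of OT-1 minus F5 was −1.13 (adjusted p = 0.21, and 0.028 with the block). For the early to mature change OT-1 minus TG6 was −0.74 (adjusted p = 0.44) with all libraries and −1.17 (adjusted p = 0.028) without TG6 mature replicate 3. Leaving out other libraries brought the differences of OT-1 minus TG6 to as little as −1.13 (late to mature, adjusted p up to 0.55) and −0.48 (early to mature, adjusted p up to 0.69).

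Clcn5, an endosomal exchanger best known from the kidney, was highest in early F5 and OT-1 thymocytes. In F5 the early libraries held 283, 253 and 314 normalized counts, the late libraries 119, 143 and 196, and the mature libraries 142, 182 and 166. Early F5 libraries lay above all later ones. Clcn5 fell 1.88-fold from early to late in F5 (−0.91 ± 0.22, adjusted p = 0.0031) and was still 1.73-fold lower at the mature stage than at the early stage (−0.79 ± 0.22, adjusted p = 0.012). In OT-1 the counts were 284, 354 and 257, then 172, 176 and 188, then 167, 324 and 212, with a fall of 1.65-fold from early to late (−0.72 ± 0.22, adjusted p = 0.017). The OT-1 call was lost without early replicate 2 (−0.59, adjusted p = 0.085) or late replicate 1 (−0.70, adjusted p = 0.053). The early to mature call in F5 was lost without early replicate 3 (−0.72, adjusted p = 0.057) or mature replicate 1 (−0.70, adjusted p = 0.060). In TG6 the counts were 238, 223 and 202, then 204 and 201, then 161, 150 and 238. No step was called in TG6 (early to late −0.12 ± 0.24, adjusted p = 0.78).

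Clcn6, an exchanger of late endosomes, fell from late positive selection to the mature stage in all 3 lines. In OT-1 the late libraries held 864, 782 and 684 normalized counts and the mature libraries 487, 586 and 492, a fall of 1.49-fold (−0.57 ± 0.12, adjusted p = 0.0020). In F5 the late libraries held 1124, 1136 and 1214 and the mature libraries 861, 765 and 873 (−0.48 ± 0.12, adjusted p = 0.0083). In TG6 the late libraries held 1002 and 1058 and the mature libraries 891, 798 and 652 (−0.41 ± 0.14, adjusted p = 0.037). Late and mature libraries did not overlap in any line. The call held without each single library in OT-1, was lost in F5 without mature replicate 2 (−0.42, adjusted p = 0.050), and was lost in TG6 without mature replicate 3 (−0.29, adjusted p = 0.17), late replicate 1 (−0.45, adjusted p = 0.11) or late replicate 2 (−0.37, adjusted p = 0.21), and also without the filter (adjusted p = 0.056), with only the compared groups (adjusted p = 0.21) and with the replicate block (adjusted p = 0.053).

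At early positive selection Clcn6 held 885, 918 and 895 normalized counts in F5, 587, 790 and 615 in OT-1, and 904, 956 and 1066 in TG6. The rise from early to late was called in F5 (0.36 ± 0.12, adjusted p = 0.034), but was lost on leaving out any of the 6 libraries (adjusted p = 0.052 to 0.11) and on leaving out the filter on low values (adjusted p = 0.053). From early to mature Clcn6 fell in TG6 (−0.33 ± 0.12, adjusted p = 0.044), a call lost without mature replicate 3 (−0.21, adjusted p = 0.22), mature replicate 2 (−0.35, adjusted p = 0.063), early replicate 2 (−0.34, adjusted p = 0.080) or early replicate 3 (−0.26, adjusted p = 0.16). It was also lost without the filter (adjusted p = 0.067), without the trend (adjusted p = 0.055) and with only the compared groups (adjusted p = 0.15). In OT-1 the same value was −0.34 ± 0.12 (adjusted p = 0.052).

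Clcn7, the lysosomal exchanger, rose in OT-1 from early to late positive selection. The early OT-1 libraries held 651, 593 and 560 normalized counts and the late libraries 868, 931 and 912, without overlap (log2 fold change 0.59 ± 0.14, adjusted p = 0.0034). The mature OT-1 libraries held 705, 759 and 676, between the early and the late ones. In F5 the counts were 791, 834 and 823, then 863, 997 and 1213, then 880, 736 and 864. In TG6 they were 949, 965 and 998, then 1102 and 1249, then 1193, 1058 and 722. The early to late values of 0.31 ± 0.14 in F5 (adjusted p = 0.11) and 0.27 ± 0.16 in TG6 (adjusted p = 0.23) were not called. The OT-1 call held in all 9 alternatives and without each single library.

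Ostm1, whose product is the beta subunit of the Clcn7 exchanger, went the other way. It fell from early to late positive selection in all 3 lines, by 2.02-fold in TG6 (2632 ± 55 to 1306 ± 104 normalized counts, adjusted p = 8.6e-06), 1.44-fold in F5 (1628 ± 116 to 1135 ± 134, adjusted p = 0.0029) and 1.53-fold in OT-1 (1421 ± 91 to 926 ± 56, adjusted p = 0.00079). From late to mature its values were −0.05, −0.13 and −0.06 on the log2 scale, with no call in TG6, F5 or OT-1. Ostm1 was also lower in OT-1 than in TG6 at each stage, by 1.85-fold at early positive selection (adjusted p = 1.4e-05), 1.41-fold at late positive selection (adjusted p = 0.018) and 1.42-fold at the mature stage (adjusted p = 0.012).

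Clcn3, a broadly expressed endosomal exchanger, was the gene with the least variation. Its counts lay between 1231 and 2085 in the 26 libraries, all 8 pairs of groups next to each other in level overlapped, and no change between stages was called. In TG6 it held 1720, 1822 and 2085 normalized counts early and 1435, 1521 and 1602 in mature thymocytes, without overlap (−0.30 ± 0.12, adjusted p = 0.065), a value called with total scaling (−0.39, adjusted p = 0.012), quantile normalization (−0.32, adjusted p = 0.043) and the replicate block (adjusted p = 0.0079). In F5 its values between stages were within 0.06 on either side of 0 on the log2 scale, and in OT-1 the late libraries held 1996, 2066 and 1484, of which replicate 3 was in the range of the other stages. The early to late value in OT-1 was 0.24 (adjusted p = 0.17) with all libraries and was called without that replicate (0.39, adjusted p = 0.023) and with the replicate block (adjusted p = 0.036). The late to mature value was also called without it (−0.34, adjusted p = 0.050), as was the early to late difference of OT-1 minus TG6 (0.67, adjusted p = 0.046, against 0.52 and 0.20 with all libraries).

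Tpcn1, the two-pore channel gene with the highest level per kb of the 8, fell in TG6 after early positive selection. The TG6 libraries held 3756, 3895 and 3704 normalized counts early, 2964 and 2807 late, and 2772, 2580 and 2100 in mature thymocytes. No 2 of these stages overlapped. Tpcn1 fell 1.31-fold from early to late (−0.39 ± 0.10, adjusted p = 0.0061) and 1.53-fold from early to mature (−0.62 ± 0.09, adjusted p = 1.2e-05). The first call was lost without late replicate 2 (−0.35, adjusted p = 0.077), and the second held in all 9 alternatives and without each single library (−0.70 to −0.50). The OT-1 libraries held 2572, 2315 and 2684, then 2431, 2322 and 2386, then 1928, 2072 and 2190, and the early to mature fall was called (−0.29 ± 0.09, adjusted p = 0.023). The OT-1 call was lost when early replicate 1 or 3 or mature replicate 1 or 2 was left out (adjusted p = 0.056 to 0.11). The F5 libraries held 3091, 3207 and 3011, then 2951, 3228 and 2829, then 2720, 2381 and 2698, with an early to mature value of −0.26 ± 0.09 (adjusted p = 0.051). With the replicate number as a block this F5 value was called (adjusted p = 0.027), which made 2 genes called in F5 from early to mature. The paralogue Tpcn2 was called in 1 step, a rise from 305 to 417 normalized counts between early and late OT-1 (adjusted p = 0.039).

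**Figure D3:**
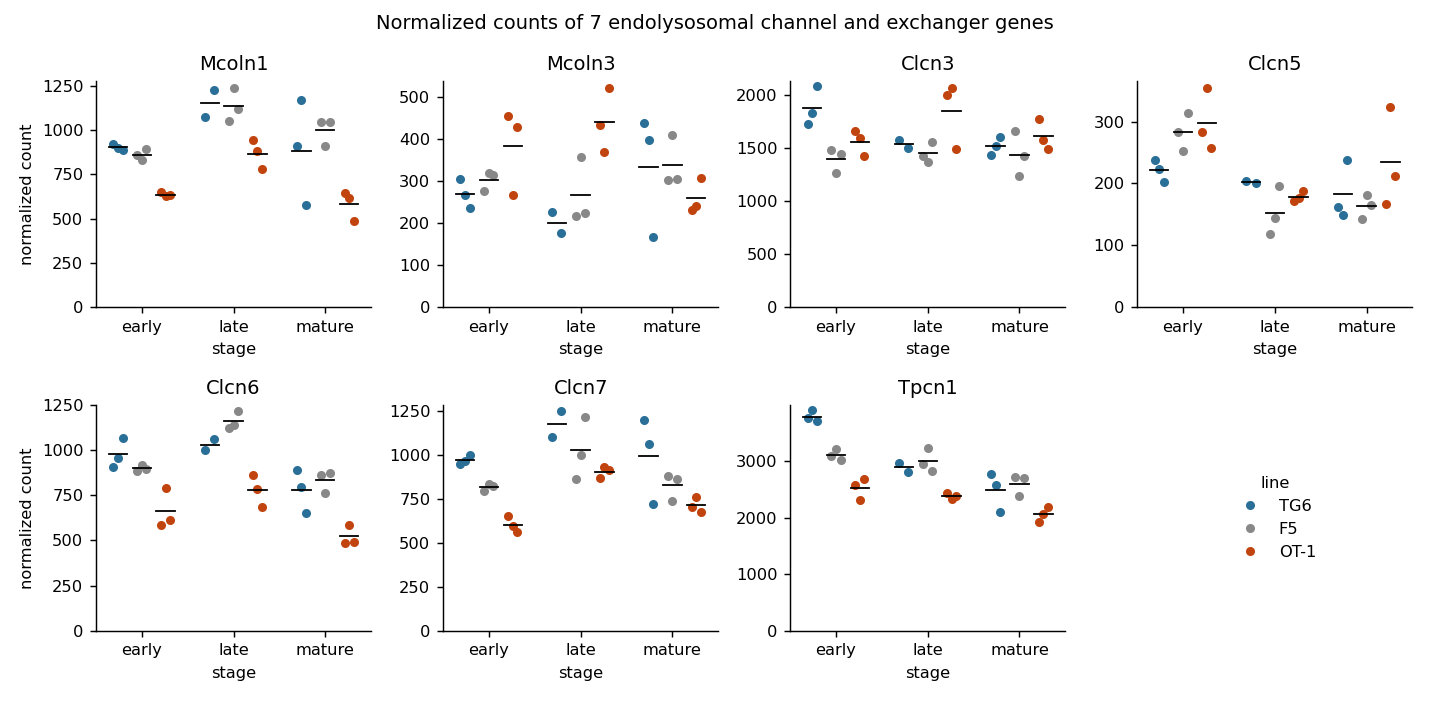
Normalized counts of the 7 genes other than Mcoln2 by stage, on linear axes that start at 0, with 1 point per library coloured by line and a black bar at the group mean. Clcn6 is lower at the mature than at the late stage in each line, Tpcn1 starts highest in early TG6 (3704 to 3895), and Clcn3 varies least (1231 to 2085).

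The lines were then compared at each stage. The study used them as models of self-reactivity, from which Rag genotype and H2 haplotype cannot be told apart here. The study narrowed its ion channel genes in part by how OT-1 differed from TG6 in the same data, and the 8 genes were put together with such results known, so the OT-1 against TG6 values are a description and not independent evidence of a direction. OT-1 is set against TG6 and against F5 with the same OT-1 libraries, so both sets of values share them. Among early thymocytes 4 of 8 genes were lower and none higher in OT-1 than in TG6, where 27.8% of all genes were called and 12.4% were lower. Among late thymocytes 1 was lower and 1 higher (15.5% of all genes called), and among mature thymocytes 4 were lower (9.74% called, 5.08% lower). Against F5, 3 genes were lower in early OT-1 (12.7% called, 4.88% lower), 2 lower and 1 higher in late OT-1 (24% called), and 3 lower in mature OT-1 (23.3% called, 10.1% lower). Some markers of other cells also differed in these comparisons. Of the 11 macrophage and dendritic cell markers, 8 were higher and 1 lower in early OT-1 than in early TG6 (median log2 difference 2.48), and 6 were higher and 1 lower than in early F5 (median 2.71). In late OT-1 3 were higher than in TG6 and 7 higher than in F5, and in mature OT-1 1 was higher and 1 lower than in TG6 and 3 higher than in F5. Their counts were low, with mean sums of 504 in early OT-1, 343 in early TG6 and 322 in early F5. In mature OT-1 the mean sum was 409, against 495 in TG6 and 262 in F5. Of 4 tested B cell markers 1 was lower in early OT-1 than in TG6 and 1 lower than in F5. No erythroid marker was called. Of the 6 thymocyte markers 3 were lower and 1 higher in OT-1 at every stage, against TG6 and against F5. They summed to 57627 to 65734 in early OT-1 against 93282 to 102594 in early TG6 and 94339 to 98291 in early F5. Late sums were 57251 to 63614 in OT-1, 77876 to 81519 in TG6 and 86720 to 91518 in F5. Mature sums were 63158 to 67351 in OT-1, 67067 to 92324 in TG6 and 83780 to 92989 in F5. The part of other cells in the differences between lines was not tested.

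Clcn6 was lower in OT-1 in all 6 of these comparisons. Against TG6 the log2 differences of the early, late and mature stage were −0.56 ± 0.12 (adjusted p = 0.0019), −0.41 ± 0.14 (adjusted p = 0.048) and −0.57 ± 0.12 (adjusted p = 0.0048). Against F5 they were −0.45 ± 0.12 (adjusted p = 0.019), −0.58 ± 0.12 (adjusted p = 0.0015) and −0.68 ± 0.12 (adjusted p = 0.00055). No OT-1 library overlapped the other line in any of the 6. The late difference from TG6 was called in 4 of 9 alternatives and in 1 of 5 fits that left out a library (adjusted p = 0.040 to 0.25). The early difference from F5 was lost without early F5 replicate 2 or 3 or early OT-1 replicate 1 or 3 (adjusted p = 0.056 to 0.11). With only the compared groups fitted, this difference (adjusted p = 0.057) and the mature difference from TG6 (adjusted p = 0.16) were also not called.

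Clcn7 and Tpcn1 were also lower in early OT-1 than in early TG6. Clcn7 was 1.62-fold lower (−0.69 ± 0.14, adjusted p = 0.00089) and Tpcn1 was lower by a log2 difference of −0.59 ± 0.09 (adjusted p = 5.2e-05), and both calls held in all 9 alternatives and without each single library. Against early F5, Clcn7 was lower by 0.44 ± 0.14 on the log2 scale (adjusted p = 0.042), a call lost on leaving out any of the 6 libraries (adjusted p = 0.055 to 0.12). Tpcn1 was lower in OT-1 than in F5 at all 3 stages, by 1.23-fold at early positive selection (adjusted p = 0.032), 1.26-fold at late positive selection (adjusted p = 0.010) and 1.26-fold at the mature stage (adjusted p = 0.012). The early call was kept in 1 of 6 fits that left out a library, the late call was lost without F5 late replicate 2 (−0.28, adjusted p = 0.059), and the mature call was lost without F5 mature replicate 3 (adjusted p = 0.054) or OT-1 mature replicate 1 (adjusted p = 0.060).

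Mcoln1 was lower in mature OT-1 than in mature F5 by 1.72-fold (−0.79 ± 0.17, adjusted p = 0.0018), with no overlap and with the call held without each single library. Among early thymocytes it was lower in OT-1 than in TG6 (−0.51 ± 0.17, adjusted p = 0.027), a call lost on leaving out any 1 of the 6 libraries (adjusted p = 0.052 to 0.071). At the mature stage the OT-1 and TG6 libraries overlapped for both Mcoln1 (−0.55 ± 0.17, adjusted p = 0.039) and Clcn7 (−0.44 ± 0.14, adjusted p = 0.048). Leaving out 1 library moved these values to between −0.83 and −0.32 for Mcoln1 and between −0.66 and −0.29 for Clcn7. The Mcoln1 call was kept in 2 of these 6 fits, and the Clcn7 call in 1 of 6 and in 4 of the 9 alternatives. The Mcoln1 call was also lost without the filter (adjusted p = 0.058), without the trend (adjusted p = 0.055) and with only the compared groups (adjusted p = 0.35). Mcoln3 was the 1 gene higher in OT-1 than in TG6, by 2.18-fold at late positive selection (1.12 ± 0.32, adjusted p = 0.019). That call was lost without OT-1 late replicate 3 (1.00, adjusted p = 0.063), TG6 late replicate 1 (1.30, adjusted p = 0.054) or TG6 late replicate 2 (0.94, adjusted p = 0.19).

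**Figure D4:**
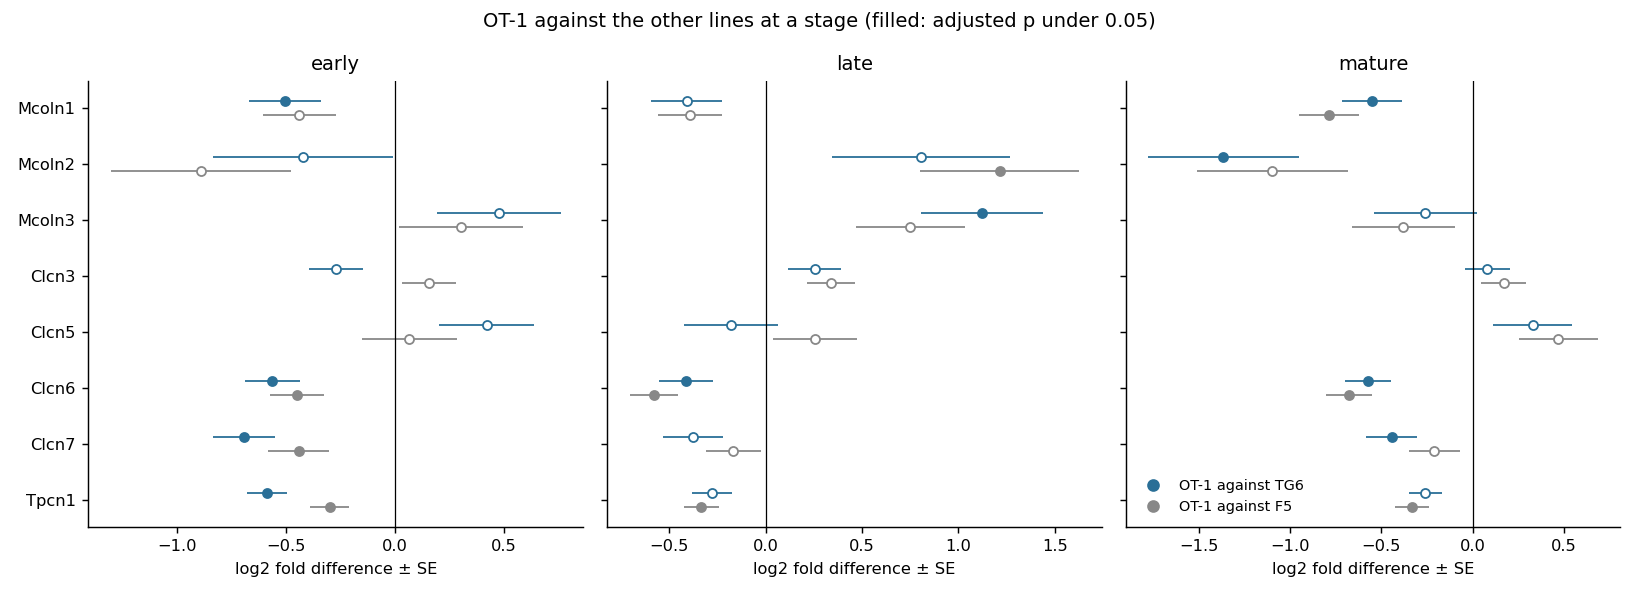
Log2 differences ± SE of OT-1 against TG6 (blue) and against F5 (grey) for the 8 genes at the early, late and mature stage, with filled points for an adjusted p under 0.05. Clcn6 is below 0 and called in all 6 comparisons, and Mcoln3 (1.12 against TG6) and Mcoln2 (1.21 against F5) are above 0 at the late stage.

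The calls at the mature stage changed with the TG6 libraries included. With all libraries 4 of 8 genes were called lower in mature OT-1 than in mature TG6, and Mcoln3 (−0.26, adjusted p = 0.60) and Tpcn1 (−0.26, adjusted p = 0.075) were not. Without replicate 3, 6 genes were called lower in mature OT-1 than in mature TG6, namely Mcoln1 (−0.83, adjusted p = 6.1e-05), Mcoln2 (−1.29, adjusted p = 0.047), Mcoln3 (−0.70, adjusted p = 0.034), Clcn6 (−0.70, adjusted p = 0.00036), Clcn7 (−0.66, adjusted p = 0.00035) and Tpcn1 (−0.38, adjusted p = 0.0019). The shares of all genes given above come from the fit with all libraries. None is given for this fit, so its count cannot be set beside all genes. Without TG6 mature replicate 1, or without replicate 2, 1 gene (Clcn6) remained called. Between F5 and TG6 few genes differed. Clcn3 was lower in early F5 than in early TG6 (−0.42 ± 0.12, adjusted p = 0.042), where 6.46% of all genes were called, and this held in 1 of 6 fits that left out a library. At late positive selection (4.97% of all genes) and the mature stage (6.64%) limma called none of the 8, and none had an unadjusted p under 0.05. The Clcn7 value of mature F5 against TG6 was −0.23 with all libraries (adjusted p = 0.43), and without TG6 mature replicate 3 it was called lower in F5 (−0.45, adjusted p = 0.017), while leaving out other libraries brought it to as little as −0.09 (adjusted p up to 0.83).

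How the libraries were scaled bears on the direction of these differences. Scaling each library to the same total moved the median of all genes by −0.11 in OT-1 against TG6 at early and by −0.13 at late positive selection, by −0.13 in OT-1 against F5 at the mature stage and by −0.11 in TG6 from late to mature, where quantile normalization moved it by −0.10. With total scaling the share of all calls that were lower went from 44.7% to 59.1%, from 39.9% to 61.1% and from 52.1% to 69.5% in OT-1 against TG6 at the early, late and mature stage. Against F5 it went from 38.5% to 56.3%, from 43.2% to 53.9% and from 43.1% to 65.6%, the last to 55.2% with quantile normalization. From late to mature it went from 34.9% to 50.2% in TG6 (50.6% with quantile normalization) and, with quantile normalization, from 42.5% to 53.8% in OT-1. With total scaling the 8 genes moved with this shift. With quantile normalization single members moved by up to 0.24 on the log2 scale beside it. No called member changed direction under either scaling.

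Genes that work with these channels were followed as lists, whose counts from early to late positive selection stand beside 25.4% of all genes called in TG6, 26.7% in F5 and 26.7% in OT-1. Of 10 tested channel partners, 2 rose and 1 fell from early to late in TG6, 2 rose and 2 fell in F5, and 2 rose and 2 fell in OT-1. Slc9a9, a sodium/proton exchanger of endosomes, fell from early to mature in all 3 lines (−1.08 in TG6, −0.52 in F5 and −1.13 in OT-1 on the log2 scale), as did Ostm1 (−1.06, −0.65 and −0.68). Hn1l was higher in early OT-1 (587) than in early TG6 (326, adjusted p = 0.018). Of the other CLC genes 3 of 7 were tested, and Clcn4-2 fell from early to mature in TG6 (−0.37, adjusted p = 0.00085), F5 (−0.24, adjusted p = 0.036) and OT-1 (−0.35, adjusted p = 0.0028). Clcn2, a chloride channel of the plasma membrane, was lower in early OT-1 (318) than in early TG6 (516, adjusted p = 0.0034).

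Of the 3 genes for the kinase complex that makes PI(3,5)P2, the lipid that opens mucolipins, none was called from early to late in any line. Pikfyve, the kinase itself, was lower in early OT-1 (1169) than in early TG6 (1525, adjusted p = 0.011). Of 9 tested regulators of lysosomal genes, 1 fell from early to late in TG6, 2 rose and 3 fell in F5, and 1 rose and 1 fell in OT-1. Rragd, a GTPase of the nutrient-sensing machinery on lysosomes, was lower in early OT-1 (174) than in early TG6 (399, adjusted p = 0.00073). Of 19 tested subunits of the V-ATPase, the proton pump of these organelles, 1 rose and 2 fell in TG6 over the same step. In F5 4 rose and in OT-1 2 rose. How these counts differ from the shares of all genes was not tested. At late positive selection Atp6v0e was higher in OT-1 (988) than in TG6 (705, adjusted p = 0.0041), and Atp6ap2 was lower (1140 against 1925, adjusted p = 2.1e-05).

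Lysosomal enzymes and membrane proteins formed the largest list, with 52 genes tested. From early to late positive selection 15 rose and 7 fell in TG6, 18 rose and 5 fell in F5, and 21 rose and 3 fell in OT-1, where 25.4%, 26.7% and 26.7% of all genes were called in either direction. From late to mature 6 rose in each line, while 8 fell in TG6, 12 in F5 and 16 in OT-1, where 22.3%, 20.5% and 24.4% of all genes were called. From early to mature, where 34.6%, 19.6% and 23.2% of all genes were called in TG6, F5 and OT-1, 10 rose in all 3 lines, among them Ctss, a cathepsin, by 7.29, 3.32 and 2.59 on the log2 scale in TG6, F5 and OT-1, and Arsb, an arylsulfatase, by 4.58, 1.08 and 4.13. Over the same interval 5 fell in all 3 lines, among them Ctsl, another cathepsin (−2.61, −1.88 and −2.28), and Lipa, the lysosomal lipase (−1.57, −1.11 and −1.05). Ctss was also higher in early OT-1 (171) than in early TG6 (8.49), the comparison in which 8 of 11 macrophage and dendritic cell markers were higher, and Ppt1, a lysosomal thioesterase, was lower (1252 against 2160, adjusted p = 1.3e-05).

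The genes whose log2 values across the 26 libraries were most like each member are given as a description, since these libraries share stage and line. Mcoln2 was most like Prss57 (Pearson r = 0.908), Fgr (0.906) and Fads2 (0.901), Mcoln1 most like Gm17552 (0.941), Gm28512 (0.919) and Pcnxl3 (0.916), and Mcoln3 most like Rnf122 (0.812), Tmem88 (0.741) and AA474408 (0.704). Of the exchangers, Clcn6 was most like Pip5k1c (0.963), Letm2 (0.943) and Gigyf1 (0.94), and Clcn7 most like Plcg1 (0.9), WI1-1749A12.1 (0.884) and Zfyve27 (0.883). The genes most like Clcn5 included 4930503L19Rik (0.773) and 1700040D17Rik (0.766), and Clcn3 was most like Srek1 (0.77), Klf3 (0.76) and Tbc1d4 (0.731). Tpcn1 was most like Vamp1 (0.954), Gse1 (0.942) and Cep97 (0.936). Among the 8 genes the highest values were those of Mcoln1 with Clcn6 (0.843), Mcoln1 with Clcn7 (0.795), Clcn6 with Tpcn1 (0.732) and Clcn6 with Clcn7 (0.714), whereas the neighbours Mcoln2 and Mcoln3 had a value of 0.234.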

How the data were processed

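RNA from sorted thymocytes of 26 libraries was sequenced. Per the submitters' processing notes, reads were trimmed with Trimmomatic 0.32, aligned to mm10 with Bowtie2 2.3.2 and counted with RSEM 1.2.31, and the authors scaled the counts with DESeq2 (median of ratios). The deposited values are this normalized signal per gene symbol, not raw counts: 39.3% to 43.1% of the values above 0 were whole numbers within 0.001, so no count model was run. Values were taken as log2(value + 1), and genes with at least 10 in at least 2 libraries were kept. limma 3.58.1 (R 4.3.3) was fitted with a separate mean in all 9 groups and a mean-variance trend (17 residual degrees of freedom), and p-values were adjusted by Benjamini-Hochberg within each comparison. The labels call the libraries biological replicates, and p-values measure the spread between them. Tables and plots were made in Python 3.11.15 with pandas 2.3.3 and matplotlib 3.10.9, and the fit was tested on simulated data. The 9 alternatives changed the pseudocount (0.1 or 5), the filter (none, or a mean of at least 50), the scaling (total or quantile), the groups fitted, the trend, or added the replicate number as a block. Each library was also left out in turn. Replicate numbers paired the samples in F5, where deviations of all 9 same-number pairs correlated at 0.106 to 0.34, whereas 5 of 9 pairs in OT-1 and 2 of 7 in TG6 passed 0.1. Of each list the text names the 2 genes per direction with the largest early to mature change among those called alike in all 3 lines, the 1 gene per direction with the largest called OT-1 against TG6 difference without overlap, and relatives of a member. For each member the text names the 3 genes most like it across libraries. A few genes that these rules or lists hold are not reported here. The 8 genes and all lists were chosen with earlier results of these data known.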

Additional observations from a re-analysis of the deposited data

How the results depend on the processing

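No value changed direction while called. Of the single-gene values under the alternatives, 3411 kept their side of the threshold, 80 gained a call and 117 lost one. Numbers of the 8 genes called that moved by over 1.5 times are given here, and where no value shows the cause, the cause was not tested. In this section the shares of all genes called are given for total scaling and quantile normalization only. Elsewhere a count that moved cannot be told apart from a shift in all calls. Without the filter, 1 gene was called in TG6 from late to mature and from early to mature, in OT-1 against TG6 at the late and mature stage and in OT-1 against F5 at the early stage, and 0 in F5 against TG6 at the early stage. Without the trend these were 1 (TG6 early to mature), 1 and 2 (OT-1 against TG6, late and mature), 1 (OT-1 against F5, early) and 0 (F5 against TG6, early). With only the compared groups fitted, there were 1 (TG6 late to mature), 5 (OT-1 late to mature), 0 (OT-1 against TG6, mature) and 2 (F5 against TG6, early). Total scaling gave 4 in TG6 from late to mature (23.6% of all genes called), 4 in OT-1 against TG6 at the late stage (17.1%) and 2 in OT-1 from early to mature (23.6%). Quantile normalization gave 5 and 2 in OT-1 from late to mature and from early to mature (24.8% and 23.2% of all genes called). A mean of at least 50 gave 2 in F5 and 2 in OT-1 from early to mature and 5 in OT-1 against F5 at the late stage. A pseudocount of 0.1 gave 2 in F5 from early to mature, and one of 5 gave 1 for the late to mature change of OT-1 minus F5.

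With the replicate block, 2 genes were called in F5 from early to mature, 5 in OT-1 from early to late, 3 in OT-1 from early to mature and 1 in OT-1 against TG6 at the late stage. For the changes between lines the block gave 1 (early to late, OT-1 minus F5), 2 (late to mature, OT-1 minus TG6) and 2 (late to mature, OT-1 minus F5). Same-number pairs correlated at 0.0189 to 0.178 in OT-1 and at 0.023 to 0.274 in TG6. Pairs of different numbers had medians of −0.0531 and −0.0298. Not all same-number pairs of these 2 lines passed 0.1, and the labels do not say what a shared number means.

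Leaving out 1 library gave 1 to 2, 1 to 3 and 1 to 2 calls in TG6 (early to late, late to mature, early to mature), 2 to 3, 1 to 2 and 0 to 1 in F5, and 2 to 5, 2 to 4 and 0 to 2 in OT-1. For OT-1 against TG6 it gave 3, 0 to 2 and 1 to 6 (early, late, mature), for OT-1 against F5 0 to 1, 2 to 3 and 2 to 3, and for F5 against TG6 0 to 1, 0 and 0 to 1. For the changes between lines it gave 0 to 1 in OT-1 minus TG6 at each interval and in OT-1 minus F5 for both steps, and 0 otherwise. TG6 late positive selection has 2 libraries, and a lone sample left there is assumed to vary like the other groups.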
